A study of Caenorhabditis elegans with 10 samples.

Results

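The genes described here encode the folding machinery of the endoplasmic reticulum (ER) of Caenorhabditis elegans, the compartment in which secreted and membrane proteins are made. They are the lectin chaperones crt-1 and cnx-1, the disulfide isomerases pdi-1, pdi-2, pdi-3 and pdi-6, the oxidase ero-1, the Hsp90-type chaperone enpl-1, and the BiP-type Hsp70 chaperones hsp-3 and hsp-4. Members were matched by gene symbol in the platform annotation, and of the probe sets with a single symbol the one with the highest mean over the 10 arrays stood for its gene. All 10 were found among 17118 genes measured. They have 15 probe sets in all. For crt-1, cnx-1, pdi-3, hsp-3 and hsp-4 there is a single probe set, and the other 5 genes have a second one. In RefSeq's annotation (WBcel235) pdi-3 and ero-1 lie on chromosome I, hsp-4 on II, cnx-1 and pdi-1 on III, enpl-1 on IV, crt-1 on V, and pdi-2, pdi-6 and hsp-3 on X; positions are not printed because the build behind the array annotation is not named.

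The study compared untreated worms of the wild-type strain Bristol N2 with worms of a strain carrying xpa-1 (ok698) on chromosome I, an allele of the nucleotide excision repair gene xpa-1. Each strain was measured on 5 Affymetrix arrays, 1 per collection. Cultures of both strains were of mixed stage, were kept at 20 degrees on agar plates with HT115(DE3) bacteria, and were pooled from many plates before total RNA was extracted. The N2 arrays therefore are the untreated control, and neither strain received a DNA-damaging agent or an ER stressor. Whether the mutant was outcrossed, or how many isolates it represents, is not stated in the labels.

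As background, proteins entering the ER bind BiP, are folded with the help of lectin chaperones that read their sugar chains, and receive disulfide bonds from isomerases that ERO-1 keeps oxidised. When unfolded proteins accumulate, the sensors IRE-1, PEK-1 and ATF-6 start the unfolded protein response (UPR), and in C. elegans a reporter of hsp-4 is the usual readout of the IRE-1 and XBP-1 branch. In this animal the ER machinery also serves the cuticle, since PDI-2 is a subunit of the prolyl 4-hydroxylases that modify collagen.

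Values are log2 probe set signals with a lowest possible value of 0, and array medians lay between 4.00 and 4.25. The strain labels were checked with xpa-1 itself, whose log2 signal ran from 6.38 to 6.88 in N2 and from 0 to 1.58 in the mutant. A whole worm holds every tissue, so in these bulk samples fewer cells of a type and less RNA per cell cannot be told apart. Signals of different probe sets are not comparable with each other, and no order of abundance among the genes is given.

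No difference between the strains was detected for any of the 10 genes. In limma, 0 of 10 passed an adjusted p of 0.05, where 0.111% of all genes did, and 0 of 10 had an unadjusted p under 0.05, where 3.33% of all genes did. By the exact permutation test over the 252 divisions of the arrays, two-sided, p ran from 0.310 to 0.881. The strains overlapped in all 10 genes, and over all genes 0.374% had strains that did not overlap. Log2 differences, always xpa-1 minus N2, ran from -0.11 for hsp-3 to 0.05 for pdi-1, with 5 above 0, 5 below 0 and a median of 0.00. Over all genes the median difference was 0.02. For each of the 10 genes the difference was smaller than 1 standard deviation (SD) between arrays of a strain.

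**Figure D1:**
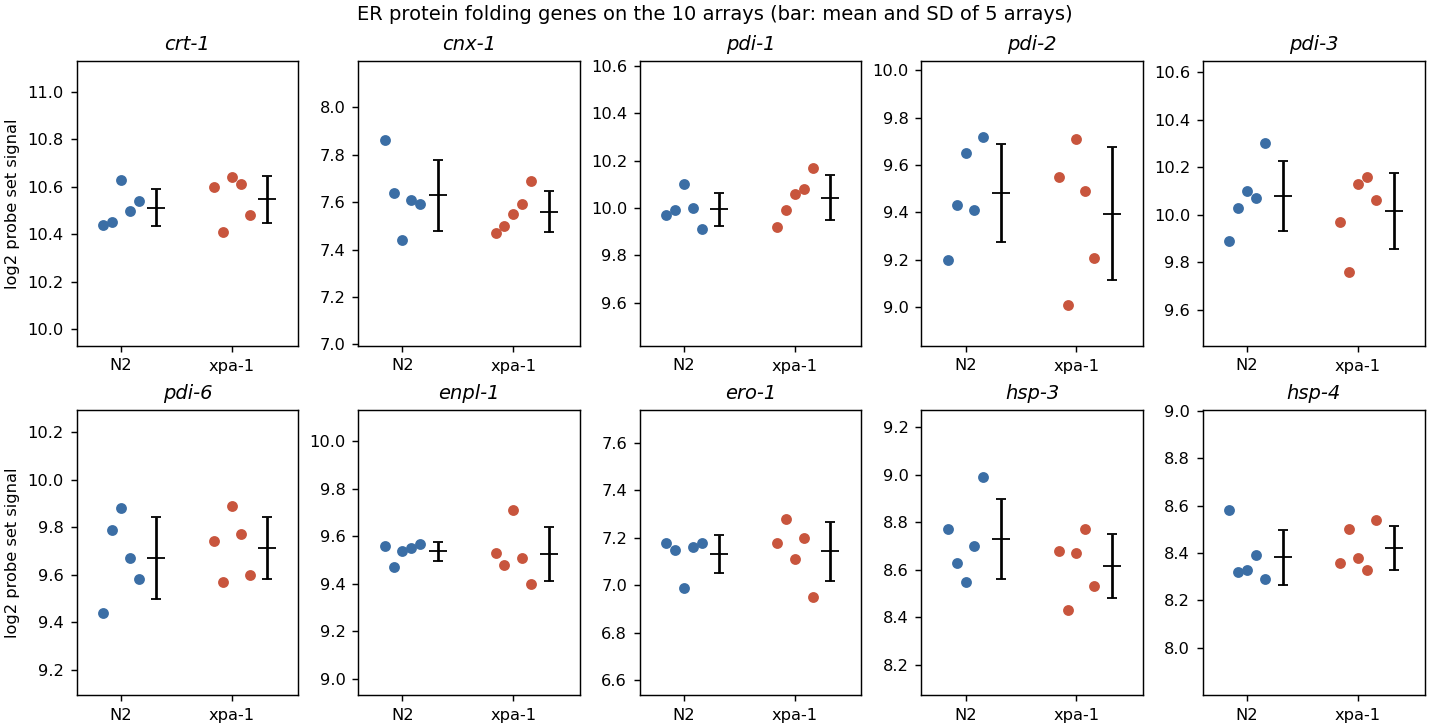
Log2 probe set signal (vertical axis, 1.2 log2 units in each panel) of each gene on the 5 N2 arrays (blue) and the 5 xpa-1 arrays (red). Points stand in replicate order and bars show the mean and SD of 5 arrays. The strains overlap in every panel, and the points of pdi-2 are the most widely spread.

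The intervals show how large a difference these arrays leave possible. All 10 of the 95% intervals lay within 0.5 log2 units of 0. The lowest bound was that of pdi-2, at -0.43, which is 1.35-fold lower in xpa-1. The highest was that of pdi-6, at 0.27, which is 1.20-fold higher.

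Of the BiP genes, hsp-4 is the one whose reporter is the usual readout of the IRE-1 and XBP-1 branch. The log2 signal of hsp-4 was 8.58, 8.32, 8.33, 8.39 and 8.29 on N2 arrays 1 to 5 and 8.36, 8.50, 8.38, 8.33 and 8.54 on xpa-1 arrays 1 to 5. The highest of all was an N2 array, replicate 1, and 4 of the 5 N2 arrays and 3 of the 5 xpa-1 arrays lay below 8.40. With means of 8.38 ± 0.12 in N2 and 8.42 ± 0.09 in xpa-1 (SD, n = 5 each), hsp-4 differed by 0.04 (standard error, SE, 0.0747; 95% interval -0.13 to 0.21; limma adjusted p = 1). An increase of hsp-4 beyond 1.16-fold therefore lies outside the interval.

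The other BiP gene, hsp-3, is expressed without stress. It read 8.77, 8.63, 8.55, 8.70 and 8.99 on N2 arrays 1 to 5 and 8.68, 8.43, 8.67, 8.77 and 8.53 on xpa-1 arrays 1 to 5. N2 replicate 5 was the highest and xpa-1 replicate 2 the lowest, and the remaining arrays of both strains were mixed between 8.53 and 8.77. Its difference of -0.11 (SE 0.0991; 95% interval -0.34 to 0.11; limma adjusted p = 1) was the most negative of the 10. Proteins of the BiP pair are close relatives, and the probe sets of hsp-3 and hsp-4 carry the suffix that marks probes able to hybridise with more than 1 related transcript, as do those of crt-1, cnx-1, pdi-1, pdi-2 and pdi-3. On N2 replicate 5 the pair moved apart, with the highest hsp-3 and the lowest hsp-4 value. Over the 10 arrays with strain means removed, Pearson's r of the pair was -0.36 (permutation p = 0.349). It was -0.09 without N2 replicate 5 and xpa-1 replicate 2. Hybridisation of these probe sets with related transcripts was not tested.

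The lectin chaperones also overlapped. Calreticulin (crt-1), a soluble calcium-binding chaperone of the ER lumen, read 10.44, 10.45, 10.63, 10.50 and 10.54 in N2 and 10.60, 10.41, 10.64, 10.61 and 10.48 in xpa-1. Its lowest and its highest value were both from xpa-1 arrays, replicates 2 and 3, only 1.17-fold apart. The difference was 0.04 (SE 0.0668; limma adjusted p = 1). Calnexin (cnx-1), the membrane-bound relative of calreticulin, read 7.86, 7.64, 7.44, 7.61 and 7.59 in N2 and 7.47, 7.50, 7.55, 7.59 and 7.69 in xpa-1. Here N2 replicate 1 stood highest and N2 replicate 3 lowest, so that the N2 range enclosed every xpa-1 value. The difference was -0.07 (SE 0.0837; limma adjusted p = 1).

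Among the disulfide isomerases, pdi-2 varied most between arrays. It read 9.43, 9.65, 9.41 and 9.72 on N2 arrays 2 to 5, and N2 replicate 1 lay 0.28 below the N2 mean (a deviation of -0.28). On xpa-1 arrays 1 to 5 it read 9.55, 9.01, 9.71, 9.49 and 9.21. Low values occurred in both strains, on N2 replicate 1 and on xpa-1 replicates 2 and 5, and the 10 arrays spanned 1.64-fold. N2 had a mean of 9.48 ± 0.21 and xpa-1 of 9.39 ± 0.28 (SD, n = 5 each), which differ by -0.09 (SE 0.152; limma adjusted p = 1).

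Its relatives were steadier. The isomerase gene pdi-1 had means of 9.99 ± 0.07 and 10.04 ± 0.09 and pdi-6 means of 9.67 ± 0.17 and 9.71 ± 0.13 (SD, n = 5 each), with differences of 0.05 (SE 0.0642) and 0.04 (SE 0.0997). For pdi-3 the means were 10.08 ± 0.15 and 10.02 ± 0.16, a difference of -0.06 (95% interval -0.29 to 0.16). N2 replicate 5 was highest for pdi-3, at 10.30, and xpa-1 replicate 2 was lowest, at 9.76, the same arrays that were at the extremes for pdi-2 and hsp-3. Each of these genes had limma adjusted p = 1.

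The oxidase gene ero-1, whose product passes oxidising equivalents to the isomerases, had means of 7.13 ± 0.08 in N2 and 7.14 ± 0.12 in the mutant (SD, n = 5 each), and differed by 0.01 (SE 0.0745; limma adjusted p = 1). Its N2 replicate 3 read 6.99 where the other 4 N2 arrays lay between 7.15 and 7.18, and without that array the difference was -0.02. Endoplasmin (enpl-1), the Hsp90 of the ER, read 9.56, 9.47, 9.54, 9.55 and 9.57 in N2 and 9.53, 9.48, 9.71, 9.51 and 9.40 in xpa-1. The N2 arrays were within 0.1 of each other, and xpa-1 had a value above and another below all of them. The difference was -0.01 (SE 0.0654; limma adjusted p = 1).

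**Figure D2:**
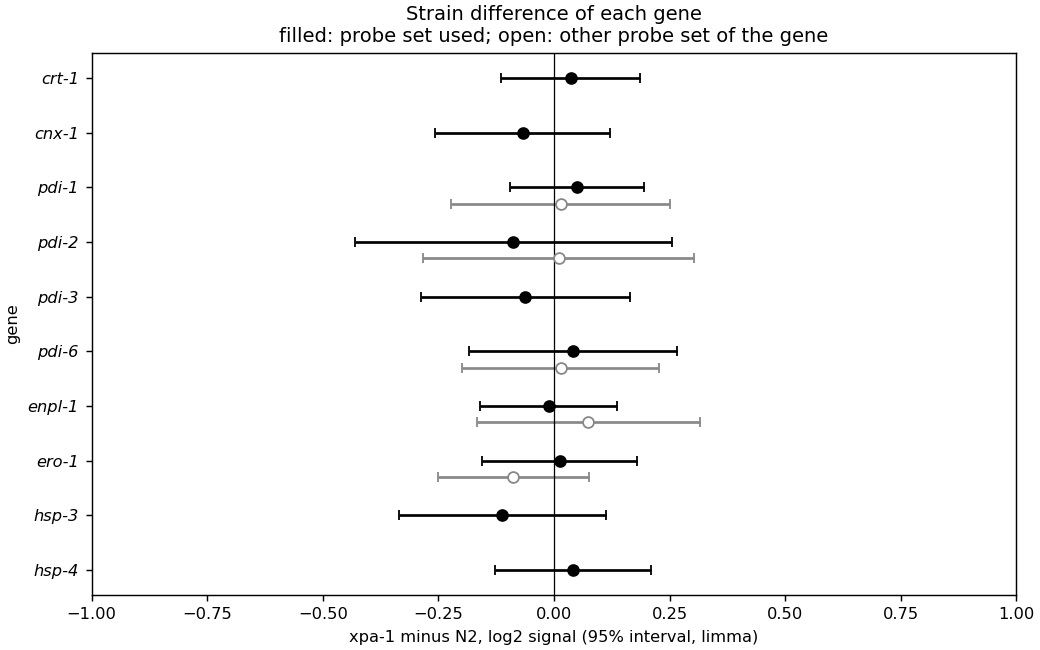
Strain difference (xpa-1 minus N2, log2 signal, horizontal axis) of each gene with its 95% interval from limma. Filled points are the probe sets used and open points the second probe set of 5 genes. Every interval includes 0.

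Second probe sets gave no difference either. Those of pdi-1, pdi-2, pdi-6, enpl-1 and ero-1 differed by 0.01, 0.01, 0.01, 0.07 and -0.09, each with limma adjusted p = 1 over probe sets. For pdi-2, enpl-1 and ero-1 the sign was opposite to that of the probe set used. How well the probe sets of a gene followed each other from array to array was uneven. With strain means removed, Pearson's r over the 10 arrays was 0.69 for pdi-2 and 0.45 for pdi-6, but 0.19 for pdi-1, 0.13 for ero-1 and -0.17 for enpl-1. These values are descriptions, and for the last 3 genes the small movements between arrays were not shared by their probe sets.

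The spread between arrays of a strain was compared next. The SD over 5 arrays was smaller in xpa-1 for 4 of 10 genes (cnx-1, pdi-6, hsp-3 and hsp-4). The same held for 54.7% of all genes and for 66.2% of the 5054 genes with a mean log2 signal over 6. The widest ratio was that of enpl-1, with 0.0396 in N2 and 0.114 in xpa-1, or 2.88 times. Next to it on the other side stood cnx-1, with 0.151 and 0.0860, or 0.570 times. In the exact permutation test of the mean absolute deviation from the strain median, two-sided, 0 of 10 genes had an unadjusted p under 0.05, where 0.298% of all genes did, and p ran from 0.262 for enpl-1 to 1 for hsp-4. That share is far under 5%, so the test makes few calls at this size, and a p that misses the threshold does not show equal spread. The ratio of SDs, tested in the same way, also gave 0 of 10.

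**Figure D3:**
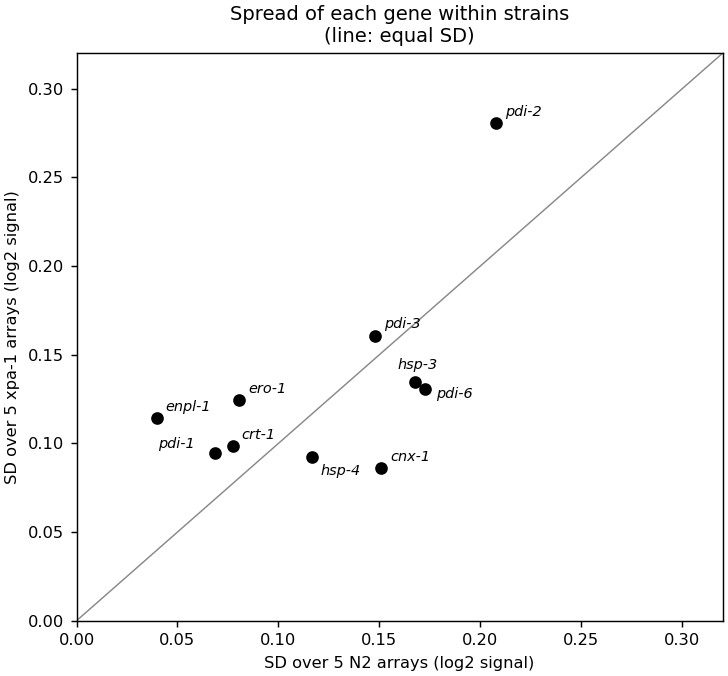
SD of each gene over the 5 N2 arrays (horizontal axis) and over the 5 xpa-1 arrays (vertical axis), both in log2 signal, with the line of equal SD. Of the 10 genes, 4 lie below the line, and pdi-2 has the largest SD in each strain.

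Within strains 9 of the 10 genes had an SD below the median of genes with a mean log2 signal over 6, and pdi-2 had one above it. Of the 5054 genes with a mean log2 signal over 6, 4.89% had a smaller within-strain SD than pdi-1, 5.56% a smaller one than enpl-1 and 6.19% a smaller one than crt-1. For pdi-2 the share was 75.3%. The remaining 6 genes lay between 11.7% for ero-1 and 35.7% for pdi-3. The within-strain SD was 0.0826 for pdi-1 and 0.247 for pdi-2, with a median of 0.114 over the 10 genes and of 0.184 over those 5054 genes. Over all genes, dim ones included, the median was 0.316. The genes compared were not matched to the 10 members for signal, so the part of brightness in this difference was not tested.

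From array to array the 10 genes did not all follow each other. Over the 10 arrays with strain means removed, 24 of the 45 pairs had r above 0 and the median r was 0.11, where pairs of other genes with a mean over 6 had a median of 0.14. Correlations over 0.7 were found in 8.89% of the pairs of members, against 15.1% of other pairs. The closest pair was crt-1 and pdi-2 (Pearson's r = 0.91, permutation p = 0.00123, adjusted p = 0.0553 over 45 pairs; Spearman's rho = 0.88, permutation p = 0.00269, adjusted p = 0.118). Its r was 0.91 without the 2 arrays farthest from the median. The pair pdi-2 and pdi-3 had r = 0.81 (permutation p = 0.00964; rho = 0.71, p = 0.0390), and 0.50 without 2 arrays. Most opposed were pdi-2 and hsp-4, with r = -0.81 (permutation p = 0.00895; rho = -0.67, p = 0.0544), and -0.71 without 2 arrays. No pair had an adjusted p under 0.05, and 8 had an unadjusted permutation p under 0.05. Pairs of other genes were not permuted, so the count of 8 has no background share. Arrays were permuted within strains in these tests.

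The arrays also differed in the signal of marker lists for stages and tissues. Genes of a list did not always move together. On N2 replicate 1, for example, the intestine gene vit-6 had its highest value, 12.06. On that array elt-2 and ges-1 of the same list had their lowest N2 values, 5.04 and 5.58. The list means are therefore only a rough reading of stage and tissue content. The mean log2 signal of 6 hypodermis and molting genes lay between 6.81 and 7.84 on N2 arrays and between 6.99 and 7.83 on xpa-1 arrays. For 6 muscle genes the ranges were 9.75 to 10.05 and 9.52 to 9.98, for 6 neuron genes 5.57 to 6.59 and 5.86 to 6.57, for 6 intestine genes 9.16 to 9.35 and 9.14 to 9.40, and for 9 oocyte and eggshell genes 9.29 to 10.09 and 9.64 to 10.02. The 8 early zygotic genes lay between 3.33 and 3.79 and between 3.37 and 3.73, and the 6 sperm genes between 2.12 and 3.82 and between 2.90 and 4.00. On some arrays the sperm genes spe-38 and fer-1 and the zygotic gene end-3 were listed at 0, and 0 of the marker genes passed the adjusted threshold in limma.

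No relation between an ER gene and a marker list passed the adjusted threshold. Of 70 relations between 10 genes and 7 lists, 21 had an unadjusted permutation p under 0.05 and 0 had an adjusted p under 0.05, so the values that follow are descriptions. How often other genes reach such an unadjusted p was not computed, so the count of 21 has no background share. For pdi-2 they were largest with the muscle list (r = 0.92, permutation p = 0.00128, adjusted p = 0.0707; rho = 0.89, p = 0.00242, adjusted p = 0.126) and with the hypodermis and molting list (r = 0.87, permutation p = 0.00309, adjusted p = 0.0707; rho = 0.87, p = 0.00361, adjusted p = 0.126). Without the 2 arrays farthest from the median of the list, these were 0.86 and 0.87. Genes of the muscle list did not all move alike. On N2 replicate 1, where pdi-2 was lowest in N2, myo-3 (7.12) and mlc-2 (11.18) had their lowest N2 values, but pat-10 its highest, 11.10. There unc-15 (9.82) was below its N2 mean of 10.03, while unc-54 (9.78) and tnt-2 (9.66) were above theirs of 9.72 and 9.58. Among genes with a mean over 6, 0.495% had as high an r with the muscle list and 4.81% with the hypodermis list, so other genes of the worm did the same. For calreticulin and the muscle list r was 0.90 (permutation p = 0.00280, adjusted p = 0.0707; rho = 0.81, p = 0.0195, adjusted p = 0.149; 0.82 without 2 arrays), and 1.07% of those genes had as high an r.

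For hsp-4 the signs were opposite. It had r = -0.92 with the hypodermis and molting list (permutation p = 0.00559, adjusted p = 0.0707; rho = -0.78, p = 0.0190, adjusted p = 0.149) and r = -0.91 with the neuron list (permutation p = 0.00521, adjusted p = 0.0707; rho = -0.80, p = 0.0135, adjusted p = 0.149). Without 2 arrays these were -0.76 and -0.78, and 1.64% and 0.317% of genes with a mean over 6 had as low an r. With the oocyte and eggshell list its r was 0.82 (permutation p = 0.00676, adjusted p = 0.0707; rho = 0.85, p = 0.00710, adjusted p = 0.149; 0.74 without 2 arrays), a value that 23.3% of those genes reached. The values of hsp-4 were highest on N2 replicate 1 and xpa-1 replicate 5. In each strain these arrays had the lowest mean of the hypodermis and molting list and the highest of the oocyte and eggshell list. Genes of the hypodermis list did not all go the same way. On N2 replicate 1 rol-6 had its lowest value, 4.81, but col-19 its highest, 10.44. On xpa-1 replicate 5 col-19 read 10.18, above its xpa-1 mean of 9.99. The signs of hsp-4 were not particular to it. For cnx-1 r was -0.75 with the hypodermis list (-0.25 without 2 arrays), -0.44 with the neuron list and 0.66 with the oocyte list. For pdi-1 these were -0.29, -0.13 and 0.33. By contrast, ero-1 had r between -0.22 and 0.06 with the 7 lists. For pdi-2 alone the hypodermis and muscle lists were also removed by regression, as described with its partners.

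**Figure D4:**
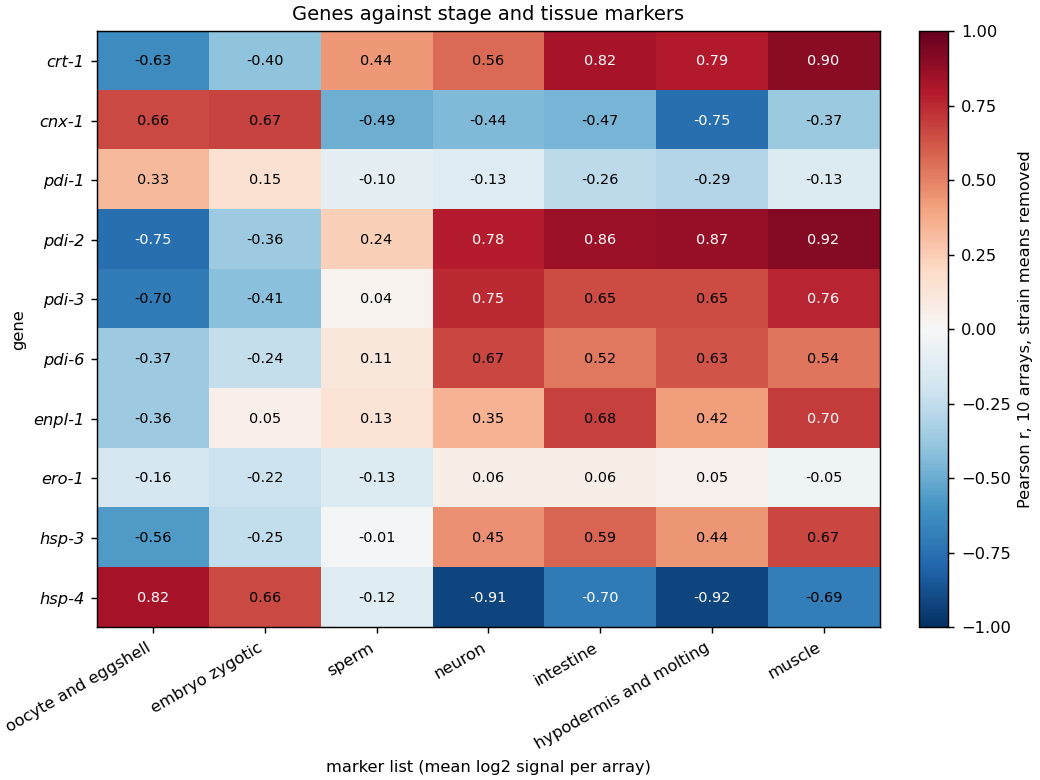
Pearson's r over 10 arrays, strain means removed, between each gene (rows) and the mean log2 signal of each marker list (columns). Red is positive and blue negative; pdi-2 and crt-1 are red against muscle (0.92 and 0.90), where hsp-4 is blue (-0.69).

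The partners of PDI-2 were examined because its best-known function depends on them. The catalytic subunits of collagen prolyl 4-hydroxylase are encoded by dpy-18 and phy-2, and PDI-2 is the subunit they share. The choice to test pdi-2 against its partners, and hsp-3 and hsp-4 against the UPR genes, was made after values had been seen, and gave 14 relations. The log2 signal of phy-2 was 6.02, 6.54, 6.83, 6.57 and 6.99 on N2 arrays 1 to 5 and 6.86, 5.98, 6.87, 6.75 and 6.17 on xpa-1 arrays 1 to 5. Its low arrays were N2 replicate 1 and xpa-1 replicates 2 and 5, the same that were low for pdi-2.

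Over the 10 arrays phy-2 and pdi-2 had r = 0.97 (permutation p = 0.00017, adjusted p = 0.00238 over 14 relations) and rho = 0.95 (permutation p = 0.00023, adjusted p = 0.00322). Without the 2 arrays farthest from the median r was 0.95, and it lay between 0.96 and 0.98 when each array was left out in turn. Of 5053 other genes with a mean over 6, phy-2 had the second rank in likeness to pdi-2, after iff-2 (r = 0.97), which was named after the values were seen. With the hypodermis list removed by regression r was 0.95, with the muscle list removed it was 0.83, and the second probe set of pdi-2 had r = 0.78 with phy-2. A list mean is only a rough reading of tissue content, so its removal can leave part of that content in both genes. Whether the relation is separate from tissue content was not tested. For dpy-18, r was 0.86 (permutation p = 0.00233, adjusted p = 0.0163; rho = 0.90, p = 0.00139, adjusted p = 0.00973; 0.85 without 2 arrays). Unlike that of phy-2, it dropped to 0.34 with the hypodermis list removed and to 0.43 with the muscle list removed, and 3.05% of genes with a mean over 6 were as close to pdi-2. With the second probe set of pdi-2, however, dpy-18 had r = 0.77, near the 0.78 of phy-2. The lists were not removed for that probe set. The contrast between phy-2 and dpy-18 therefore rests on 1 probe set of pdi-2 and on rough list means. The dim phy-3 and the lysyl hydroxylase gene let-268 did not pass (r = -0.51 and 0.45, adjusted permutation p = 0.298 and 0.469).

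No relation of a UPR gene with hsp-3 or hsp-4 passed the adjusted threshold. Of 3 with an unadjusted p under 0.05, those with the largest r were atf-6 with hsp-3 (r = 0.71, permutation p = 0.0360, adjusted p = 0.132; rho = 0.57, p = 0.108; 0.25 without 2 arrays) and atf-4 with hsp-4 (r = -0.73, permutation p = 0.0377, adjusted p = 0.132; rho = -0.32, p = 0.392; -0.08 without 2 arrays). These rested on the arrays left out. The relation of atf-6 with hsp-4 (r = -0.68, permutation p = 0.0497, adjusted p = 0.139; rho = -0.63, p = 0.0709) was -0.56 without 2 arrays. For xbp-1, which encodes the transcription factor activated by IRE-1, r was 0.36 with hsp-3 and -0.35 with hsp-4. The array reads total xbp-1 transcript, so splicing by IRE-1 is not measured here.

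The genes most like the mean of the 10 members, by Pearson's r over 10 arrays with strain means removed and among 5044 genes with a mean over 6, were tni-4, glt-1, F08B12.4, idh-2 and mlc-2. Their r ran from 0.94 for mlc-2 to 0.95 for tni-4. Of these, tni-4 encodes a troponin I and mlc-2 a myosin light chain, both of muscle, and the latter is a member of the muscle list. The members were averaged without scaling to equal spread, and pdi-2 had the largest within-strain SD, 0.247 against a median of 0.114. Their mean therefore does not stand for every member. With the muscle list r was -0.69 for hsp-4, -0.37 for cnx-1, -0.13 for pdi-1 and -0.05 for ero-1. It was above 0 for crt-1, pdi-2, pdi-3, pdi-6, enpl-1 and hsp-3. Most like hsp-4 were fzo-1, bub-3, sep-1, rpn-6.1 and R07G3.7, with r from 0.93 to 0.96. Among them bub-3 and sep-1 encode a spindle checkpoint protein and separase, fzo-1 the mitofusin and rpn-6.1 a proteasome lid subunit. The strain differences of these 10 genes lay between -0.11 for mlc-2 and 0.13 for bub-3.

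The wider ER pathway was described by 8 lists with 84 entries, of which 71 genes were measured. In limma, 0 of 71 passed the adjusted threshold in either direction, where 0.111% of all genes did, and 1 had an unadjusted p under 0.05. Their median difference was -0.01.

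The UPR list held 5 measured genes, with 4 above 0, ire-1 at 0.00 and a median difference of 0.10. None passed. The transcription factor gene atf-4 had 7.19 ± 0.12 in N2 and 7.29 ± 0.11 in xpa-1 (SD, n = 5 each; difference 0.10, SE 0.0800), and the sensor gene pek-1, a kinase that slows translation, had 5.10 ± 0.15 and 5.18 ± 0.09. For xbp-1 the means were 8.04 ± 0.18 and 8.14 ± 0.21, and for ire-1 7.45 ± 0.11 and 7.45 ± 0.13. Each had limma adjusted p = 1.

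Of 13 genes of ER-associated degradation, which returns misfolded proteins to the cytosol, 9 were above 0 and the median was 0.04. The peptide N-glycanase gene png-1 differed by 0.08 (SE 0.0776) and npl-4.2, a partner of the CDC-48 segregase, by -0.07 (SE 0.111). Of 12 genes of translocation and signal peptidase, 10 were below 0, with a median of -0.04. Here the signal peptidase subunit gene spcs-2 differed by 0.13 (SE 0.0996) and the translocon-associated trap-3 by -0.11 (SE 0.0714). The 7 genes of N-glycosylation and glycoprotein quality control had a median of -0.03, with ribo-1 of the oligosaccharyltransferase at 0.06 (SE 0.0836).

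The single gene with an unadjusted p under 0.05 was uggt-2, a relative of the glycoprotein glucosyltransferase gene uggt-1. It was at the bottom of the scale, with values of 2, 0, 0, 2 and 1 on N2 arrays 1 to 5, and was listed at 0 on all 5 xpa-1 arrays (unadjusted p = 0.0406, adjusted p = 1 in limma). N2 replicates 2 and 3 were at 0 as well, so the strains overlapped. The brighter uggt-1, which reglucosylates glycoproteins that have not yet folded, had 6.92 ± 0.07 and 6.94 ± 0.16 (SD, n = 5 each).

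Other folding helpers had a median of -0.00 over 15 genes. The isomerase-like gene Y49E10.4 differed by 0.15 (SE 0.120) and the cyclophilin gene cyn-6 by -0.12 (SE 0.283). Their within-strain SD had a median of 0.318, against 0.114 for the 10 members, and ran from 0.105 for the BiP co-chaperone gene dnj-7 to 0.800 for the prolyl isomerase gene fkb-4. These genes were not matched to the members for signal, and fkb-4 had a mean of only 4.11. The 4 collagen hydroxylation partners had a median of 0.07, with dpy-18 at 0.23 (SE 0.315) and let-268 at -0.06 (SE 0.121).

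The abu genes were named for their activation when the UPR is blocked, and 11 were measured, with a median of -0.04. Within strains abu-15 had an SD of 1.05 and abu-6 one of 0.966, and the list mean ranged from 4.07 to 5.68 over the N2 arrays. Some members of this family are near-copies of each other, so the probe sets of those may share transcripts. The strain differences were -0.25 for abu-4 (SE 0.136) and 0.20 for abu-3 (SE 0.298), the latter near the floor. All 4 genes of ER calcium handling were below 0 with a median of -0.08, and sca-1, the calcium pump of the ER, differed by -0.16 (SE 0.148). Muscle uses much of this calcium machinery, and the muscle list had a median difference of -0.12, with 6 of 6 genes below 0 and none past the threshold. The part of muscle RNA in the calcium genes was not tested.

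**Figure D5:**
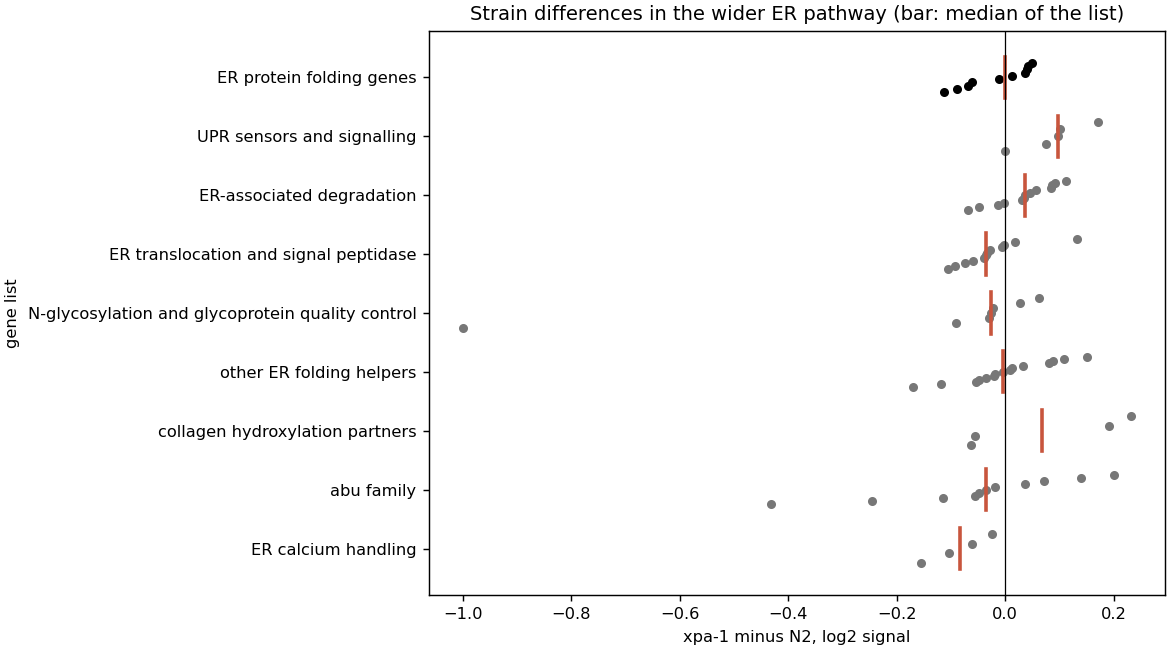
Strain difference (xpa-1 minus N2, log2 signal, horizontal axis) of every measured gene of the ER protein folding group and of 8 wider ER lists (rows), with a bar at the median of each list. Apart from the dim uggt-2, all points lie between -0.43 and 0.23.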

How the data were processed

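The authors deposited log2 signals of probe sets in a table of 10 array columns. Affymetrix Expression Console made them, per the submitters' processing notes; the sources used here do not say how it summarised, background-corrected or scaled them. No probe-level files or sequences were used. The 77 control probe sets were left out of 22625, and the other 22548 were fitted by lmFit and eBayes of limma 3.58.1 (R 4.3.3; strain as the only term, two-sided), with no further scaling and no filter. For genes, Benjamini-Hochberg adjustment was made over 17118 genes. Arrays have no read depth; their number sets the precision. Chromosomes and locus tags were read from the RefSeq table of WBcel235; C06A6.5 was found through its locus tag as erp-44.2.

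Single genes were also tested by exact permutation of the 10 arrays, and correlations by 100000 permutations within strains, with adjustment within families of 70, 45 and 14 relations. Only relations of the members were permuted. The fit and the spread test were tested on simulated data. Named were the 10 members, in each pathway list the gene with the lowest p on each side of 0, and the 5 genes most like the members' mean or hsp-4; others were chosen after their values were seen. The members and lists were chosen with earlier results of these data known. Same-numbered arrays did not deviate together (r from -0.76 to 0.08 over 5 pairs), and the main fit treated the arrays as unpaired. Differently numbered arrays had r of up to 0.75, so a smaller effect shared by arrays of a number could be hidden and is not excluded. Replicates were separate collections, and p-values measure the spread between these. Alternatives changed the scaling, the low end of the scale, the filter, the variance model, the probe sets, stage covariates, the replicate block and single arrays.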

Additional observations from a re-analysis of the deposited data

Results flagged for a closer look

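Values standing clear of the other 4 in a strain were looked for in 50 groups of 5 arrays, the 10 genes and the 15 marker and pathway list means in each strain, and 2 were found, where chance gives about 1 in 20. In N2 replicate 3, ero-1 read 6.99 against 7.15 to 7.18 on the other N2 arrays. In xpa-1 replicate 1, the mean of the 6 sperm genes was 4.00 against 2.90 to 3.01 on the other xpa-1 arrays, and on that array none of the 10 ER genes had its lowest or highest value.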

How the results depend on the processing

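Under all 23 alternatives 0 of the 10 genes and 0 of the 71 pathway genes passed the adjusted threshold, the lowest adjusted p of a member being 0.850 and the lowest unadjusted p 0.159 in limma. The median difference of the members stayed within -0.03 to 0.01 when single arrays were left out. Differences this close to 0 changed sign in 20 of 230 recomputations. For ero-1 (0.01) the value was -0.0103 with quantile normalization, -0.002 with arrays centred on their median and -0.038 with the mean of all probe sets, and for enpl-1 (-0.01) it was 0.00944 with array weights and 0.031 with the mean of all probe sets. In settings added after seeing the data, leaving out N2 replicates 1 and 5 gave -0.066 for pdi-6 and 0.006 for enpl-1. Leaving out xpa-1 replicates 2 and 5 as well gave -0.01 for pdi-1, 0.0867 for pdi-2, 0.02 for pdi-3, 0.0633 for enpl-1 and 0.08 for hsp-3. When single arrays were left out, values lay between -0.016 and 0.094 for pdi-6, -0.0235 and 0.0605 for ero-1, -0.167 and 0.008 for pdi-2, -0.109 and 0.002 for pdi-3, and -0.058 and 0.0195 for enpl-1. In each case the cause was not tested.

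The difference in spread (mean absolute deviation, xpa-1 minus N2) was recomputed for the settings of scaling, offset and probe sets, for the ratio of SDs and without single arrays, and passed for no member in these. It changed sign with quantile normalization for crt-1 (-0.019), pdi-3 (-0.0151) and hsp-4 (0.012), with arrays centred on their median for crt-1 (-0.02), pdi-2 (-0.006) and hsp-4 (0.058), and with the mean of all probe sets for pdi-1 (-0.058) and pdi-6 (0.024). Without single arrays it lay between -0.0555 and 0.007 for cnx-1, -0.0135 and 0.0345 for crt-1, -0.0535 and 0.0255 for hsp-3, -0.0245 and 0.0425 for hsp-4, -0.012 and 0.108 for pdi-2, and -0.031 and 0.0495 for pdi-3.

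Over all genes 19 passed. With the replicate block 5 did and 0 of the 10 members, and no array correlated best with the array of its own number. Only genes with a mean over 4 gave 12, and leaving out the 4 arrays named above gave 30. In the block and array settings the cause was not tested. With 5 arrays a strain, the intervals given in the results bound the differences left possible.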
